A study of Mus musculus with 289 samples.

Results

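The genes of the cytosolic ribosome were followed in single progeny cells of Lrig1-expressing stem cells of mouse tail epidermis. The members were the rows of the count table whose symbol is Rpl or Rps with a number (with or without a final a, x, y, l or further number), together with Rplp0, Rplp1, Rplp2 and Rpsa. Kinases of ribosomal protein S6 and pseudogenes were left out. This gave 81 of 15019 genes, 32 of the small subunit and 49 of the large subunit, and all 81 had a count in these cells.

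The cytosolic ribosome translates every nuclear-encoded messenger. Its small subunit decodes the messenger and its large subunit joins the amino acids. Most of its proteins are made in step with one another, and their messengers usually begin with a tract of pyrimidines (a TOP motif) through which mTORC1 and Larp1 control their translation. In the epidermis, basal keratinocytes express Krt14, cells that leave the basal layer switch to Krt10, and Mki67 marks cycling cells.

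All mice carried Lrig1-EGFP-ires-CreERT2 and Rosa26-fl/STOP/fl-tdTomato on a mixed CBA and C57BL/6 background, and all were female by the study's methods. Hydroxytamoxifen was put on the tail skin of these young adult mice once, so that Cre from the Lrig1 locus switched on tdTomato in Lrig1-positive cells and all their descendants. The skin, labelled t0, then received PRT4165, an inhibitor of the Ring1 and Rnf2 ubiquitin ligases of Polycomb repressive complex 1, or vehicle, and tomato-positive keratinocytes were sorted. The label AC was read as vehicle, because PRT4165 and vehicle are the only treatments named. Each of 4 plates held 1 treatment, 2 plates a treatment, and the plate is the replicate here. A code in the labels (PR9 or PR12) also differs between the treatments and cannot be told apart from them, and how the animals were divided over the plates is not given.

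Of 289 cells, 274 passed the filter (70 and 55 with vehicle, 72 and 77 with PRT4165). The median depth was 121253 non-mitochondrial counts per cell on vehicle plate 1 and 334177 to 414406 on the other plates. Krt14 had a count in 89.1% to 98.7% of the cells of a plate, and the leukocyte gene Ptprc in 2.86% to 7.27%. Of the 6 fibroblast markers 5 were in the table, and they summed to at most 0.0119% of the counts of a plate. The endothelial gene Pecam1 had a count in every cell, at 298 to 840 CPM (counts scaled to the same total for every plate); it was the 1 gene of 3 endothelial markers in the table.

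Of the 81 members, 61 had a RefSeq promoter window (build GRCm38.p6). At the annotated transcription start, 13 of these genes (21.3%) had a C followed by at least 4 further C or T bases on the sense strand, against 3.01% of all 27025 genes with a window. Within 5 bases of the annotated start the numbers were 29 members (47.5%) and 21.2% of all genes. The starts of 6 of the 13 members with the tract at the annotated start are printed to show its form, from 5 bases before the annotated start, with the tract in capitals. They are Rps6, the substrate of S6 kinase, the stalk protein Rplp2, Rps27, and Rpl15, Rpl35a and Rps15a, and the windows are chr4:86857348-86857372, chr7:141447646-141447670 and chr3:90213629-90213653, then chr14:18270967-18270991, chr16:33056477-33056501 and chr7:118116128-118116152.
Rps6 (minus strand): cgggcCTCTTTTTCgtgacgcctcc
Rplp2 (plus strand): tcttcCTTTCgccgccggacgccgc
Rps27 (minus strand): tcgctCCTTTCCggcggtgacgacc
Rpl15 (minus strand): gccttCTTCCTTTCCTCTggcggca
Rpl35a (plus strand): ccttcCTCTTTCCgccatcttggcg
Rps15a (minus strand): gccatCTTCCCTCgccggtgagtga

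Ribosomal protein genes took a large part of the counts of these keratinocytes. In the median cell, the 81 genes held 18.8% (plate 1) and 17.7% (plate 2) of the non-mitochondrial counts with vehicle. With PRT4165 they held 18.6% (plate 1) and 22.1% (plate 2). Single cells ran from 0.0946% to 45.5%, both on vehicle plate 1. The lower and upper quartiles were 10.5% and 23.6% on that plate, 13.2% and 25.0% on vehicle plate 2, 12.4% and 27.9% on PRT4165 plate 1, and 17.6% and 27.7% on PRT4165 plate 2. Cells under 5% numbered 6, 3, 4 and 1 in the same order. PRT4165 plate 2 therefore had the highest median and the fewest cells of very low share. A share has the other messengers as its denominator, so it does not give the amount of ribosomal messenger in a cell.

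Averaged over plates, these medians came to 18.3% ± 0.776 for vehicle (SD over 2 plates) and 20.3% ± 2.49 for PRT4165 (SD over 2 plates). The difference was 2.02 percentage points (SE 1.84), with p = 0.667 when plates were permuted (exact, two-sided). The smallest p that 2 against 2 plates allow is 0.333. The plates of the 2 treatments overlapped, and the difference was 0.263 percentage points without PRT4165 plate 2. Within the batches that the labels number, the difference was -0.286 in replicate 1 and 4.33 in replicate 2. In the cells of a stricter filter (at least 2000 genes and at most 30% mitochondrial counts) both PRT4165 plates (22.3% and 22.8%) lay above both vehicle plates (19.1% and 19.7%), with p = 0.333 in the same exact permutation test.

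With all counts of a plate summed, the members took 13.4% (plate 1) and 16.7% (plate 2) of the counts for vehicle. For PRT4165 they took 15.5% (plate 1) and 21.3% (plate 2). The difference of 3.34 percentage points (SE 3.29) was again within the spread of the plates (exact permutation p = 0.667, n = 2 plates a treatment), and it was 0.470 without PRT4165 plate 2. Within replicate 1 it was 2.08 and within replicate 2 it was 4.61. On vehicle plate 1 the summed share was well below the median cell, and cells with more counts had a lower share there (Spearman correlation of share with counts -0.290 over 70 cells). The same correlation was -0.383, -0.566 and -0.0704 on vehicle plate 2, PRT4165 plate 1 and PRT4165 plate 2. Counting error alone gave each plate's share a 95% Wilson interval at most 0.0312 percentage points wide, which leaves out amplification.

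**Figure D1:**
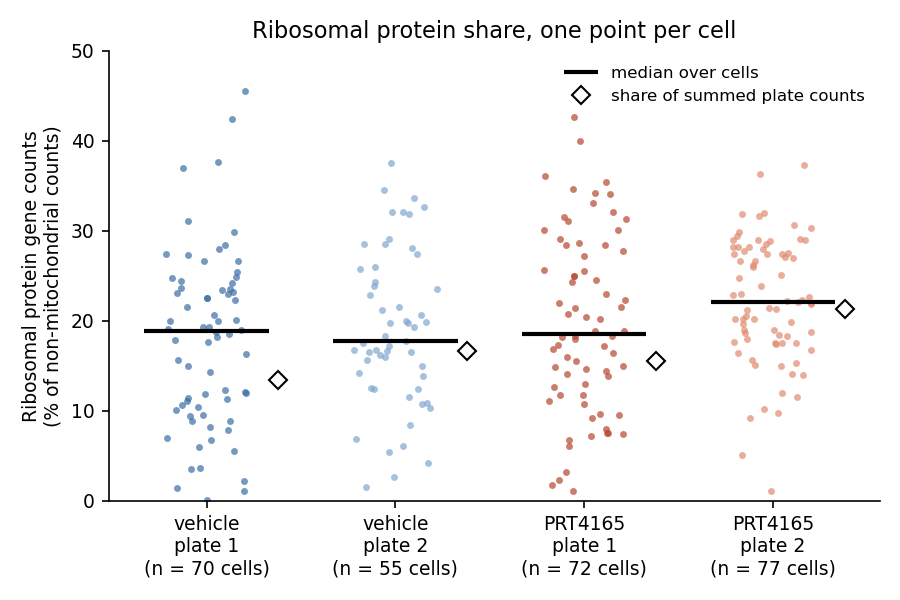
Each point is 1 cell, and the vertical axis is the percentage of its non-mitochondrial counts on the 81 ribosomal protein genes. Bars are the plate medians (18.8%, 17.7%, 18.6% and 22.1%) and open diamonds the share of the summed plate counts (13.4%, 16.7%, 15.5% and 21.3%); both are highest on PRT4165 plate 2.

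The ratio of small to large subunit counts in the median cell was 0.526 (plate 1) and 0.608 (plate 2) for vehicle, and 0.558 (plate 1) and 0.578 (plate 2) for PRT4165. The PRT4165 plates lay between the vehicle plates, and the difference was 0.00079 (exact permutation p = 1, n = 2 plates a treatment). Rpl5, the member with the most counts, weighs on this ratio. Without Rpl5, left out after the values were seen, the ratio was 0.706 and 0.703 with vehicle and 0.711 and 0.704 with PRT4165, so the plates differed far less once this 1 gene was set aside.

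Levels differed widely between members and kept their order between plates (lowest Spearman correlation of member levels between any pair of plates 0.916, over 81 genes). Rpl5, which binds the 5S ribosomal RNA and carries it into the large subunit, took the most counts: it had 29379 and 15864 CPM with vehicle and 26709 and 26741 CPM with PRT4165, and 14.3% of all member counts. In counts, which are not scaled for length, Rpl23 followed with a mean of 7420 CPM over the plates, then Rpl39 with 6654, Rps27a, which is made as a fusion with ubiquitin, with 4828, and among the next was Rpl30 with 4288. The median of the means was 1465 CPM for the small subunit and 1478 CPM for the large subunit.

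Per kilobase of transcript, Rpl5 (12065 CPM per kb), Rpl39 (10872), Rps27a (7580) and Rpl30 (7523) had the highest mean levels, and Rpl23 had 7006. Rpl39 lines the exit tunnel of the large subunit. The lowest were Rpl22 (752), Rpl10 (742), Rps3 (626), Rpl7a (391) and Rpl7l1 (33.2 CPM per kb). Rplp0, Rplp1 and Rplp2, which form the stalk that recruits elongation factors, had 2239, 4044 and 2341 CPM per kb. Rpsa, the laminin receptor protein of the small subunit, had 1702, and Rps6 had 1406. On the vehicle plates 79 members, and on the PRT4165 plates 80, had a count in over 90% of the cells.

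**Figure D2:**
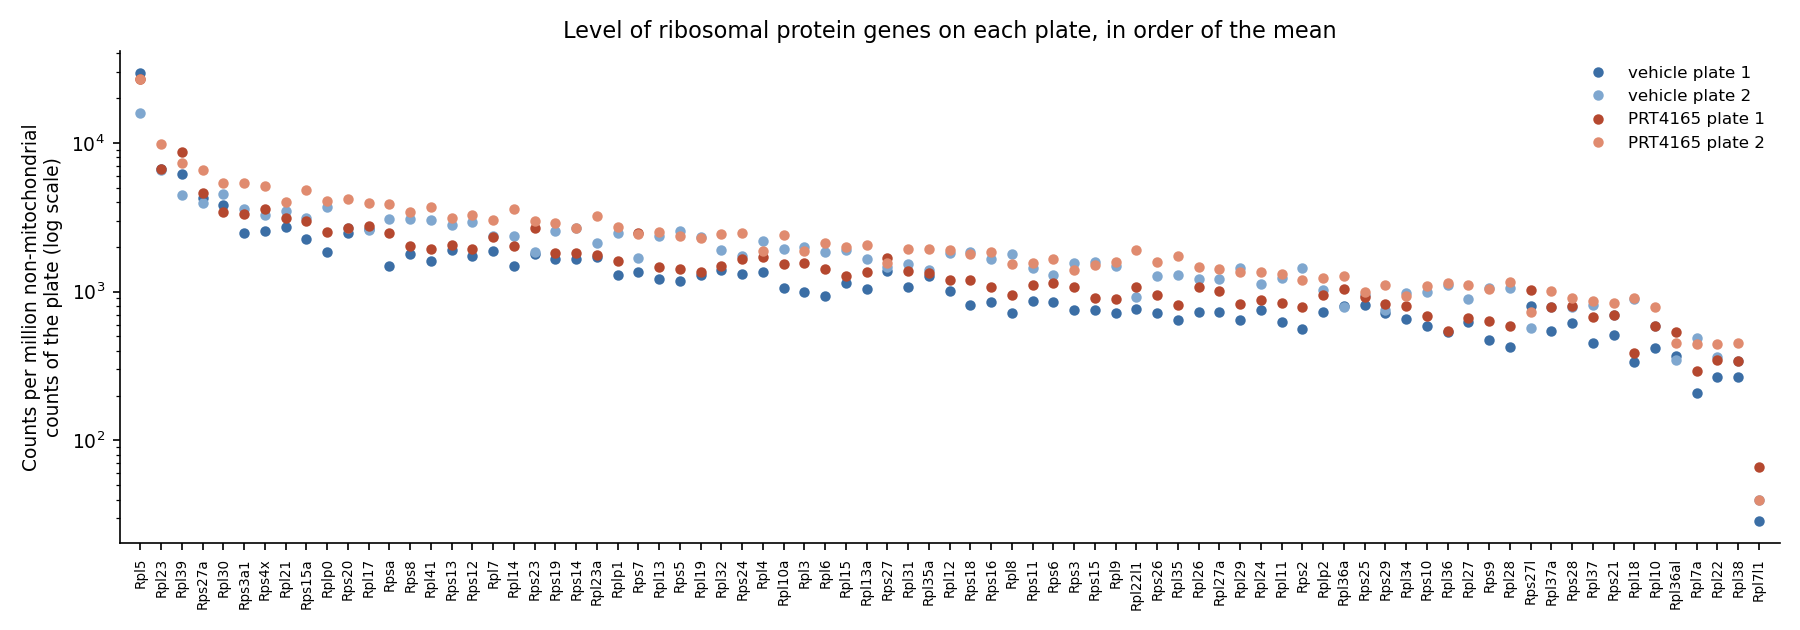
Level of 79 of the 81 members (horizontal axis, in order of the mean) on each of the 4 plates, as CPM of the plate's non-mitochondrial counts, not scaled for length, on a log scale. Rpl5 (15864 to 29379 CPM) lies above and Rpl7l1 (28.7 to 65.7 CPM) far below all other members on every plate.

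Rps6 had 854 and 1286 CPM with vehicle and 1135 and 1663 CPM with PRT4165, so the treatments overlapped. Rpsa had 1480 and 3064 CPM against 2478 and 3864 CPM, and Rplp0 1855 and 3730 CPM against 2502 and 4075 CPM. In all 3 genes vehicle plate 1 was lowest and PRT4165 plate 2 highest, with the remaining plates between them. Rplp1 (1300 and 2465, then 1599 and 2707 CPM) and Rplp2 (731 and 1022, then 953 and 1236 CPM) had the same order.

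No member passed the test of PRT4165 against vehicle. In edgeR's quasi-likelihood test on the summed counts of each plate, 0 of 81 members and 0 of 12791 genes tested (0%) passed at 0.05 after Benjamini-Hochberg adjustment. Without adjustment, 0 members were under 0.05, against 357 genes higher (2.79%) and 273 lower (2.13%). DESeq2 called 0 members, 104 genes higher and 70 lower. The fitted change was above 0 for all 81 members, where 49.4% of all genes tested were above 0, and its median was 0.30 on the log2 scale, against -0.02 for all genes. With replicate number as a block, 80 members were above 0 (median 0.28), against 6435 of 12791 genes (median 0.01). With each cell scaled to one total, 61 members were above 0 (median 0.16), against 6459 of 13019 genes (median -0.01). Leaving out 1 plate left the replicate numbers unequal between treatments. Without vehicle plate 2, 80 members were above 0, against 7584 of 13534 genes. Without PRT4165 plate 1 it was 81 members, against 6132 of 13541 genes. The direction was weaker without either of the remaining plates. Without PRT4165 plate 2, 36 members were above 0 with a median of -0.07, against 6070 of 13583 genes with a median of -0.15. Without vehicle plate 1 there were 51 members with a median of 0.14, against 7469 of 13733 genes with a median of 0.13. Without either of these plates the members' median was near that of all genes. When plates were scaled by the members' own sum, the members fell around 0 by construction, so this fit does not bear on their direction. In it 38 members were above 0 with a median of -0.02, and the median of all genes was -0.27. Sums of this kind cannot tell a change within cells from a change in the mix of cells.

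Both PRT4165 plates lay above both vehicle plates for 15 members and below them for 0, where 16.3% of all genes tested were above and 15.7% below. Among the 15 were Rpl17, Rpl22l1, Rpl36a, Rpl36al, Rpl37a, Rpl38, Rpl39, Rps23, Rps27, Rps27a, Rps28, Rps29, Rps4x and Rps7. As a share of the 81, the 15 above were close to the share among all genes. The 0 below were not, as 15.7% of all genes lay below.

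The members of smallest p were all fitted higher with PRT4165. Rps7, a small subunit protein that binds Mdm2, had 1358 and 1669 CPM with vehicle and 2485 and 2429 CPM with PRT4165 (log2 fold change 0.71, SE 0.39, edgeR adjusted p = 0.997). Rpl22l1 had 767 and 926 CPM against 1081 and 1891 CPM, a log2 fold change of 0.84 with SE 0.47. Rps23, of the decoding centre, had 1788 and 1851 CPM against 2664 and 2970 CPM (log2 fold change 0.64, SE 0.39). Rps4x, the X-linked S4 gene, had 2568 and 3253 CPM against 3591 and 5102 CPM (0.61, SE 0.41). Rpl39 had 6179 and 4470 CPM against 8629 and 7337 CPM (0.56, SE 0.40). All 5 had both PRT4165 plates above both vehicle plates, and the edgeR adjusted p was 0.997 for each. No member was fitted lower; the smallest change was that of Rps2 (0.05).

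**Figure D3:**
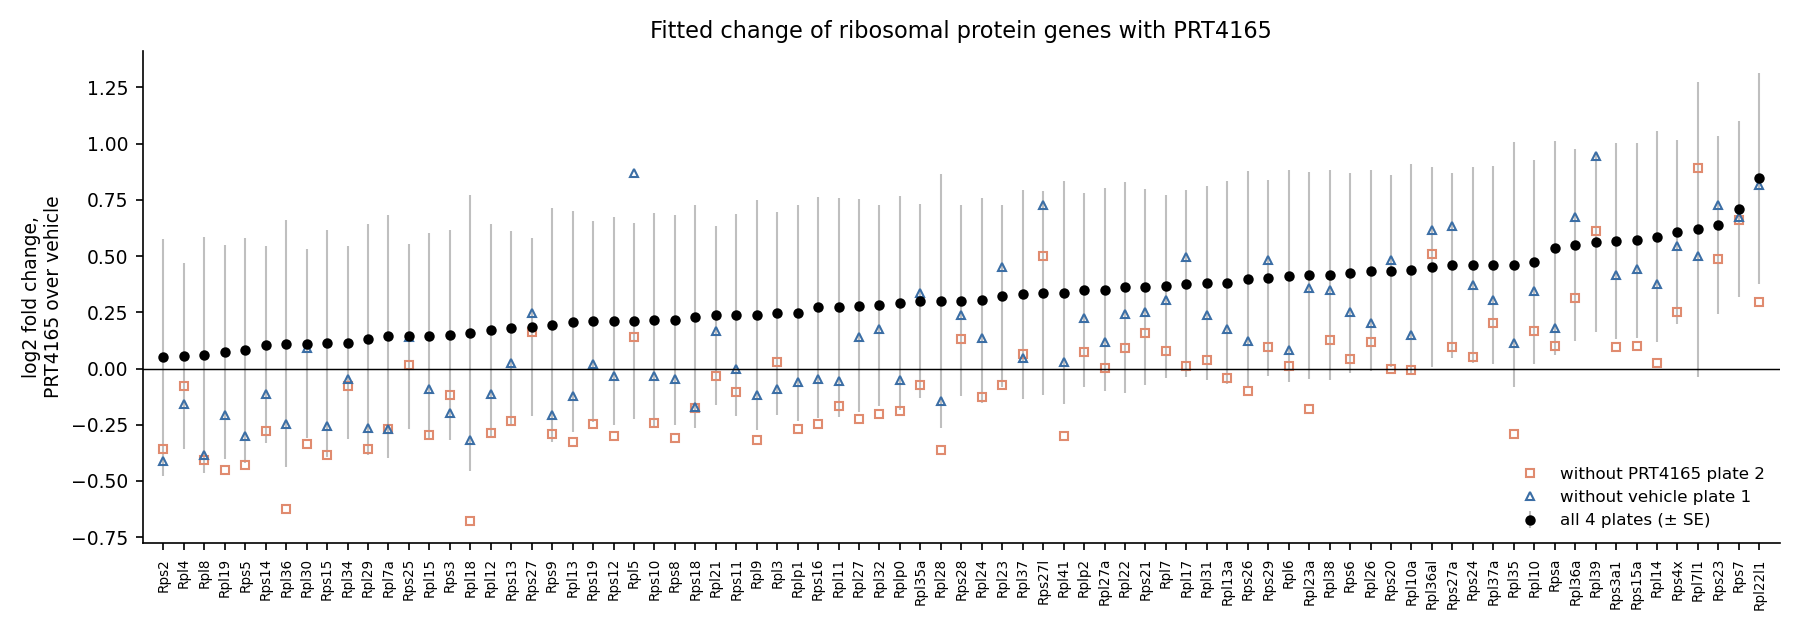
Fitted log2 fold change of 79 of the 81 members (PRT4165 over vehicle, edgeR on plate sums), in order of size. Black points with SE bars use all 4 plates and are all above 0, open squares leave out PRT4165 plate 2 (36 of 81 above 0) and open triangles leave out vehicle plate 1 (51 of 81 above 0). Among all genes, 6070 of 13583 and 7469 of 13733 were above 0 without these plates.

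Other genes of translation were taken from hand-written lists, and none passed the test. Among 6 elongation factors 4 were fitted above 0 (median log2 fold change 0.13), among 35 initiation factors 20 (0.02), among 49 ribosome biogenesis genes 27 (0.05), and among 22 genes of the mTORC1 pathway 8 (-0.12). Of 78 mitochondrial ribosomal proteins, 56 were fitted above 0 (median 0.25), as were 5 of 6 ubiquitin fusions and ribosome partners such as Fau and Rack1 (0.27), and 13 of 17 other TOP messengers (0.11). Scaled to the members' sum, these became 33 of 78, 2 of 6 and 4 of 17. Some genes stand on more than 1 of these lists. Fau encodes a protein of the small subunit and Rack1 is bound to that subunit, but the symbol rule takes neither as a member. The smallest p belonged to Nmd3, the export adaptor of the large subunit (log2 fold change 2.59, SE 0.59, edgeR adjusted p = 0.862). DESeq2 gave Nmd3 an adjusted p of 0.0199. Riok2, a kinase of small subunit maturation, had a log2 fold change of 2.14 with SE 0.77 (edgeR adjusted p = 0.935).

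The smallest p of the remaining lists were larger. Eif3j1 had a log2 fold change of -1.55 (SE 0.80) and Eif3a, the scaffold of eIF3, 0.85 (SE 0.48). Eef2, the translocase, had -0.43 (SE 0.53) and Eef1g 0.31 (SE 0.53). Hnrnpa1 had 1.05 (SE 0.46), Npm1, the nucleolar chaperone, 0.81 (SE 0.39), Naca 0.37 (SE 0.41) and Serbp1 0.33 (SE 0.44). Myc had 1.78 (SE 0.86), Rraga, a GTPase that recruits mTORC1 to the lysosome, 1.16 (SE 0.58), Mrps31 1.44 (SE 0.95) and Mrps30 1.27 (SE 0.94). For all 12 the edgeR adjusted p was 0.997. Krt14 (-0.51, SE 0.47), Krt10 (0.56, SE 0.57) and Mki67 (1.08, SE 0.80) did not pass either.

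Across the cells of a plate, the summed share of the 6 ubiquitin fusions and ribosome partners followed the ribosomal protein share most closely of all 7 lists on every plate (Spearman correlation 0.755, 0.824, 0.834 and 0.736 on vehicle plates 1 and 2 and PRT4165 plates 1 and 2). The other TOP messengers came next on every plate with 0.633, 0.561, 0.456 and 0.483, and below them the order of the lists changed from plate to plate. The elongation factors had 0.549, 0.533, 0.371 and 0.400, and ribosome biogenesis had 0.558, 0.375, 0.310 and 0.300. The mitochondrial ribosomal proteins had 0.542, 0.227, 0.377 and 0.310, the initiation factors 0.344, 0.213, 0.291 and 0.0802, and the mTORC1 pathway -0.00159, 0.0187, 0.0216 and 0.0953. All are shares of the same counts of the same 55 to 77 cells. The first list, with Fau and Rack1, is not a class apart from ribosomal protein genes.

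Cells with more Krt10 than Krt14 had a lower ribosomal protein share on 3 of the 4 plates. There were 24, 17, 23 and 32 such cells and 43, 36, 47 and 45 cells with Krt14 at or above Krt10, in the order of vehicle plates 1 and 2 and PRT4165 plates 1 and 2. On vehicle plate 1 the median share was 11.9% in Krt10 cells and 20.1% in Krt14 cells, and on vehicle plate 2 it was 14.1% and 20.3%. On PRT4165 plate 1 it was 12.96% in Krt10 cells and 22.3% in Krt14 cells. On PRT4165 plate 2 it was 22.6% and 21.9%, so the Krt10 cells of this plate alone were not lower. Without Rpl5, left out after the values were seen, Krt10 minus Krt14 was -7.99, -6.95, -7.41 and -0.146 percentage points on these plates.

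The mean difference over plates was -5.75 percentage points (SE 2.24, n = 4 plates; exact two-sided sign-flip permutation p = 0.25, where 4 plates allow no p below 0.125). Without PRT4165 plate 2 it was -7.90. In the stricter set of cells Krt10 cells were lower on all 4 plates (differences of -8.03, -11.6, -11.6 and -4.72 percentage points), and the p of the same exact permutation test was 0.125. The difference was -7.18 on average with vehicle and -4.32 with PRT4165, and a permutation test of that change had an exact p of 1 (n = 2 plates a treatment). Only 13 cells had between 40% and 60% Krt10 in their Krt10 and Krt14 counts, and 7 had neither.

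The Krt10 cells were the deeper libraries on every plate, with median counts of 172901, 451908, 462535 and 436445 against 85159, 401378, 276176 and 309718 in Krt14 cells. Depth moved with the share on 3 plates. With every cell thinned to 50000 counts (246 cells remained) the differences between Krt10 and Krt14 cells were -8.32, -6.64, -7.37 and 1.28. Mitochondrial counts were 24.4%, 19.6%, 22.1% and 26.6% of the median Krt10 cell and 18.2%, 23.6%, 20.3% and 28.3% of the median Krt14 cell.

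Cells with at least 1 Mki67 count numbered 6, 10, 16 and 11. Their median share was 22.5% against 18.2% in the other cells on vehicle plate 1, 16.9% against 18.3% on vehicle plate 2, 19.6% against 18.3% on PRT4165 plate 1, and 22.1% against 22.04% on PRT4165 plate 2. The direction was not the same on all plates. The mean difference was 1.09 percentage points (SE 1.21, n = 4 plates; exact sign-flip permutation p = 0.5). It was 0.0080 without vehicle plate 1, which had the fewest such cells. With mitochondrial counts in the denominator the difference was 3.18, above 0 on all 4 plates (exact permutation p = 0.125).

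**Figure D4:**
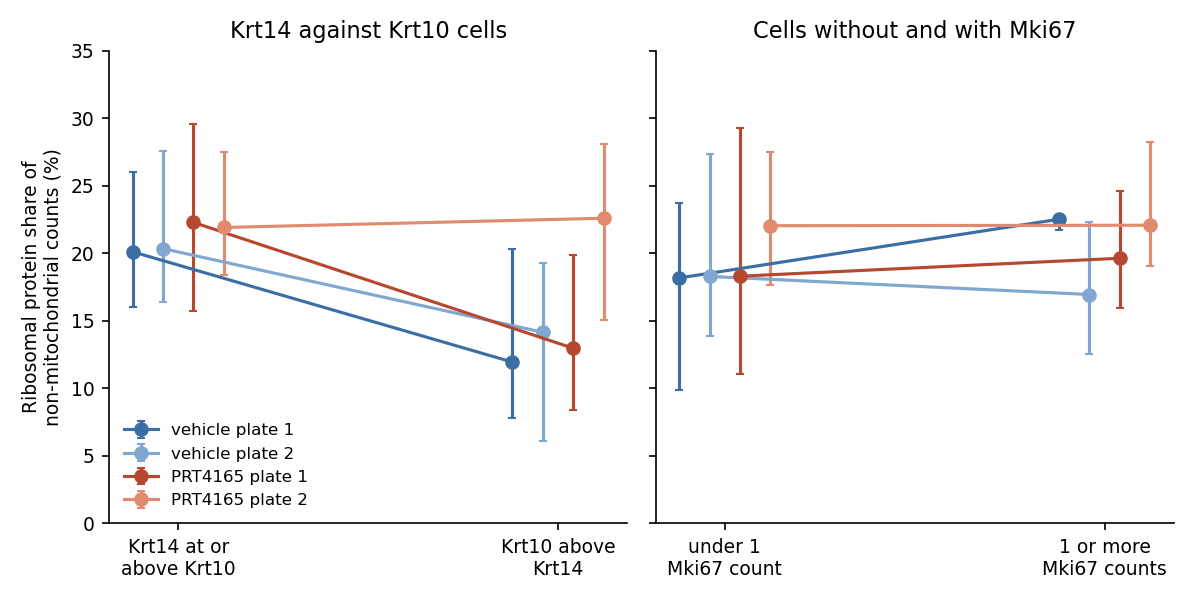
Median ribosomal protein share (percentage of non-mitochondrial counts) of the cells of each plate, split by Krt14 and Krt10 on the left and by Mki67 on the right, with bars from the lower to the upper quartile over cells. Krt10 cells are lower than Krt14 cells on 3 plates and not on PRT4165 plate 2 (21.9% and 22.6%), and no common direction is seen for Mki67.

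Counts summed over the Krt10 cells and over the Krt14 cells of each plate were also compared gene by gene in edgeR with plate as a term, a fit chosen after seeing the data. It called 0 of 81 members, against 15 of 12685 genes higher (0.118%) and 0 lower (0%). Of the members 60 were fitted below 0, with 59.8% of all genes below 0, and the median log2 fold change was -0.18 for members and -0.31 for all genes. With each cell scaled to the same total it called 0 members, 68 genes higher (0.531%) and 14 lower (0.109%). In that fit 68 of the 81 members were below 0, with 60.8% of all genes below 0, and the medians were -0.24 for members and -0.34 for all genes. More members than genes at large were fitted below 0 here, while their median was nearer to 0. Rpl39 had 0.38 (SE 0.18, edgeR adjusted p = 0.450). For Mki67 cells the same kind of fit called 0 members, against 28 of 12658 genes higher (0.221%) and 13 lower (0.103%). There 55 members were fitted above 0 with a median of 0.06, while 64.8% of all genes were below 0 with a median of -0.47. With each cell scaled to the same total it called 0 members, against 26 genes higher (0.204%) and 11 lower (0.0863%). The members then turned: 26 were above 0 with a median of -0.05, while 66.7% of all genes were below 0 with a median of -0.53. The change of either contrast with treatment was called for 0 members and 0 genes (0%).

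Across cells, the share was positively correlated with Krt14 on 3 plates (Spearman correlation 0.308, 0.318, 0.457 and 0.0333 over 70, 55, 72 and 77 cells) and negatively with Krt10 on the same plates (-0.311, -0.351, -0.232 and -0.0112). With Mki67 it was 0.164, -0.0900, 0.00367 and 0.0515. These values describe cells that share a plate, a library preparation and the same denominator.

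Single members showed where PRT4165 plate 2 differed. The correlation with Krt14 was above 0 for 79, 81, 76 and 61 of the 81 members, with medians of 0.301, 0.330, 0.436 and 0.326. Over all 4313 genes detected in more than 80 cells, 48.9%, 70.7%, 53.8% and 67.6% were above 0, with medians of -0.00453, 0.0807, 0.0149 and 0.0723. On PRT4165 plate 2 the median member kept its level of correlation, while more members than on the other plates were below 0. Rpl5 had 0.117, 0.0848, 0.184 and -0.388 with Krt14, the lowest of all members on PRT4165 plate 2. Rpl30 had 0.206, 0.0992, 0.139 and -0.353, and Rpl39 0.0393, 0.0360, -0.219 and -0.301. Rplp0 had 0.324, 0.397, 0.368 and 0.408, and Rpsa 0.303, 0.333, 0.494 and 0.430. With Krt10 the members' medians were -0.243, -0.260, -0.146 and -0.0894, and 2, 0, 8 and 17 members were above 0. Over all these genes the medians were 0.0378, -0.00123, -0.0115 and -0.0574, and 58.7%, 49.6%, 47.5% and 37.5% were above 0, so the members lay nearest to the other genes on PRT4165 plate 2.

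Members varied together from cell to cell. The median Spearman correlation between any pair of members was 0.648 and 0.613 for vehicle, and 0.664 and 0.426 for PRT4165. No such value is given for pairs of other genes, and the part of depth in it was not tested. Against the sum of all other members, Rpl17, Rps27a and Rps13 had the highest mean correlation over plates (0.838, 0.817 and 0.817).

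The paralogues followed the other members less closely than their partners did. Rpl22l1 had a correlation with the sum of the other members of 0.0385, 0.136, -0.0821 and -0.00158, while Rpl22, the protein it resembles, had 0.642, 0.666, 0.684 and 0.462. Rpl22l1 was not rare: it had a mean of 1166 CPM, was seen in 89.1% to 97.4% of the cells of a plate, and had a mean of 2112 CPM per kb where Rpl22 had 752. Rps27l, a p53 target, had 0.388, 0.252, 0.176 and 0.199 and Rps27 had 0.774, 0.797, 0.809 and 0.481. Rpl7l1 had -0.0444, 0.0529, -0.0386 and 0.162 against 0.644, 0.603, 0.590 and 0.526 for Rpl7, but had a count in only 32.9% to 63.6% of cells. These were the 3 lowest means of the 81 members. Rpl36al was the fifth lowest (0.453, 0.327, 0.420 and 0.308), with Rpl36a at 0.790, 0.674, 0.773 and 0.576. Between the members of a pair the correlation ran from -0.102 to 0.143 for Rpl22 and Rpl22l1 and from 0.232 to 0.516 for Rpl36a and Rpl36al.

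Some members followed Rpl5 closely, though Rpl5 itself had correlations with the sum of the other members of only 0.607, 0.283, 0.523 and 0.358. Across 4313 genes, Rpl30 and Rpl23 were the genes closest to Rpl5 on every plate (Spearman correlation 0.888, 0.837, 0.842 and 0.861 for Rpl30, and 0.865, 0.866, 0.805 and 0.866 for Rpl23). Of the 20 closest genes, 17, 13, 17 and 16 were members, where at most 81 of the 4313 genes are members. Rps27a (0.829, 0.675, 0.761 and 0.808), Rps15a (0.727, 0.737, 0.705 and 0.813) and Rpl39 (0.652, 0.813, 0.494 and 0.785) came next by their mean. At the other end, Rpl7l1 and Rpl7a had the lowest means over plates (-0.0776 and -0.0555). Rps2 had 0.233, -0.205, 0.0361 and -0.158, and Rpl18 had 0.323, -0.255, 0.164 and -0.268.

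The members close to Rpl5 had coding sequences of lower GC content. Across the 81 members, coding GC and the correlation with Rpl5 had a Spearman correlation of -0.488, -0.741, -0.555 and -0.742 on the 4 plates. Over all 4232 genes with a coding sequence the same value was 0.0489, -0.0520, 0.0145 and -0.187. With the GC content of the whole transcript the members gave -0.441, -0.656, -0.465 and -0.643, and with that of the longest transcript of each gene, the first choice tried, -0.362, -0.571, -0.330 and -0.528. Level (0.558, 0.291, 0.499 and 0.405), coding length (-0.334, -0.154, -0.323 and -0.290) and transcript length (-0.162, 0.0464, -0.141 and -0.0955) were also looked at. Rpl5 was taken for its level and these features were looked at after the values were seen, so they are given without a test. Coding GC ran from 39.9% (Rpl22l1) to 61.6% (Rpl36). There were exceptions at both ends. Rpl22l1 had correlations with Rpl5 of only 0.157, 0.429, 0.0938 and 0.254, and Rps29, at 59.5% GC, had 0.304 to 0.611.

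The first 60 coding bases of 4 members toward each end of this order, chosen after the values were seen, are printed with G and C in capitals (GENCODE M21 transcripts, build GRCm38, all from coding exons). The first 4 were close to Rpl5 or Rpl5 itself, and their whole coding sequences held 46.02% (Rpl5), 44.9% (Rpl30), 49.05% (Rpl23) and 45.9% (Rps15a) GC. The last 4 were far from it and held 57.6% (Rps2), 59.2% (Rpl18), 56.05% (Rplp0) and 58.8% (Rpl8). Rpl7l1, Rpl7a and Rps9, also far from Rpl5, held 50.3%, 54.8% and 56.9%. The genes close to Rpl5 lie at chr5:107900502-107909005 (Rpl5), chr15:34440505-34443640 (Rpl30), chr11:97777527-97782437 (Rpl23) and chr7:118104372-118116188 (Rps15a). Those far from it lie at chr17:24718116-24721929 (Rps2), chr7:45715457-45720836 (Rpl18), chr5:115559467-115563727 (Rplp0) and chr15:76904078-76906314 (Rpl8). The first 60 bases hold 21 G or C bases in Rpl5 and 44 in Rps2, but 37 in Rpl23, so the start alone does not follow the whole.
Rpl5: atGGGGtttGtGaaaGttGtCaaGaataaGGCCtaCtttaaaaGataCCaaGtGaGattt
Rpl30: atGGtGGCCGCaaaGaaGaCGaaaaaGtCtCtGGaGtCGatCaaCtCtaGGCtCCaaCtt
Rpl23: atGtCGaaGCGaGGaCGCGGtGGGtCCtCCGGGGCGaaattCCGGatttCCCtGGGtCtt
Rps15a: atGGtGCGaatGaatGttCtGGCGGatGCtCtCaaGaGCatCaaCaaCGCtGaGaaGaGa
Rps2: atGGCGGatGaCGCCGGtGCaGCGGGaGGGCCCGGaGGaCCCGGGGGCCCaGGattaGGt
Rpl18: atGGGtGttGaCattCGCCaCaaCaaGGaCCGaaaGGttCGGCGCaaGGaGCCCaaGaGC
Rplp0: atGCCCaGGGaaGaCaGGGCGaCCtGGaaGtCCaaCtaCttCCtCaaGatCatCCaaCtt
Rpl8: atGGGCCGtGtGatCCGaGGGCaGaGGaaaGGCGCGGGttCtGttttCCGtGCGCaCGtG

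**Figure D5:**
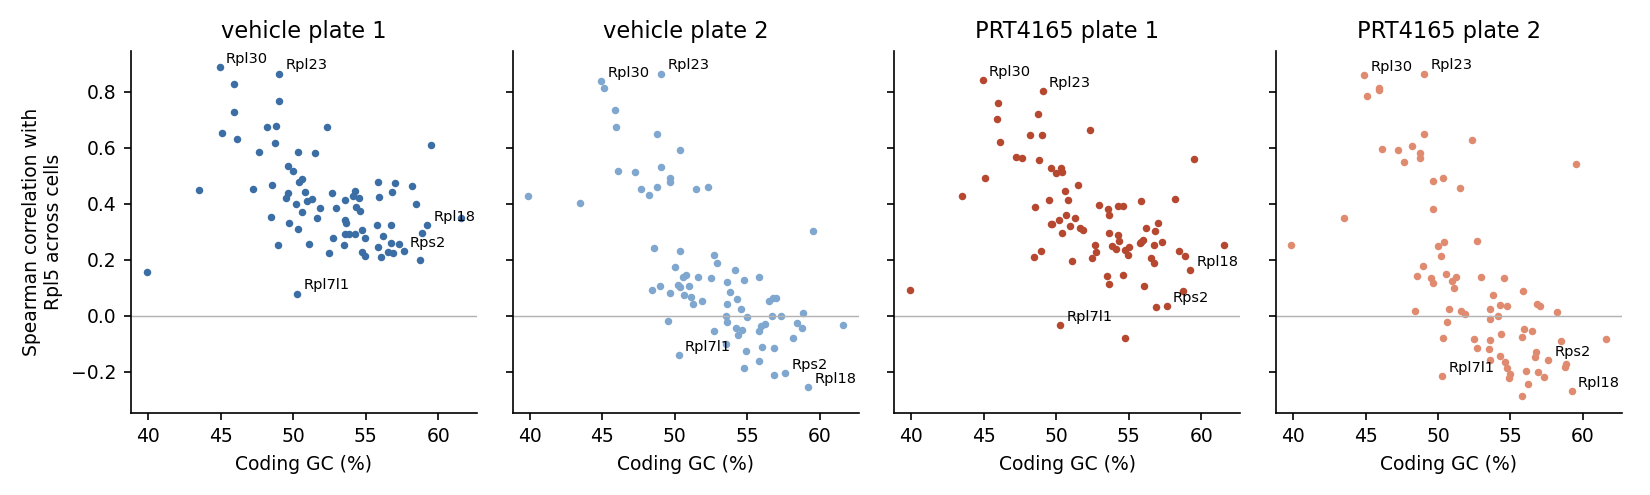
Each point is 1 member other than Rpl5. The horizontal axis is the GC percentage of its coding sequence and the vertical axis its Spearman correlation with Rpl5 across the cells of 1 plate (1 panel a plate). Points tend to fall from upper left (Rpl30, Rpl23) toward the right (Rpl18, Rps2). On vehicle plate 1, Rpl22l1 (0.157) and Rpl7l1 (0.0795), of lower GC, lie below Rpl18 (0.323) and Rps2 (0.233). Rpl7l1 also lies below both on PRT4165 plate 1.

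Split by coding GC, the members behaved differently on PRT4165 plate 2. The 27 members of lowest coding GC (at most 50.4%) took a median of 7.22% and 7.35% of the counts of a cell with vehicle, and 10.1% on both plates with PRT4165. The 27 of highest coding GC (at least 54.6%) took 4.53% and 4.75%, then 4.77% and 5.41%. In these medians the PRT4165 plates lay above the vehicle plates for both sets, by a narrow margin for the high GC set. In the plate sums the low GC set had 8.004% and 7.24% with vehicle and 8.80% and 10.7% with PRT4165, while the high GC set overlapped (2.67% and 4.94%, then 3.25% and 5.36%). From Krt14 to Krt10 cells the low GC set changed by -3.47, -3.50, -5.10 and 2.65 percentage points, so it was higher in Krt10 cells on PRT4165 plate 2 alone. Rpl5, the member with the most counts, belongs to the low GC set, and the values of the set are not given without it. The high GC set changed by -2.17, -2.41, -1.96 and -1.18 and was lower in Krt10 cells on all 4 plates. With Krt14, the low GC set had correlations of 0.226, 0.147, 0.284 and -0.329, and the high GC set 0.397, 0.436, 0.512 and 0.543. The median ratio of the low to the high GC set was 1.74, 1.07, 2.15 and 1.915, and without Rpl5 it was 1.27, 0.901, 1.52 and 1.51. The ratio with Rpl5 also moved with depth (Spearman correlation 0.446, 0.196, 0.496 and 0.0600) and with the mitochondrial percentage (0.373, 0.553, 0.343 and 0.188). The part of depth and mitochondrial percentage in these values was not tested. The sets were formed after the values were seen, and no test is given for them.

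Counts of some members are less certain than others. The deposited counts are estimates that divide reads shared by several transcripts, and for 10 members over 50% of the values above 0 were not whole, among them Rps18 (93.0%), Rps23 (91.2%), Rpl10 (87.3%) and Rps27 (78.4%). The median member had 13.6% such values, Rpl5 had 6.59% and Rps6 none. The 8 ribosomal protein pseudogenes in the table summed to 0.577% and 0.792% of the members' counts with vehicle, and to 0.604% and 0.773% with PRT4165.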

How the data were processed

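Tomato-positive keratinocytes were sorted singly into plates and sequenced by a modified Smart-seq2 protocol with oligo-dT priming and no molecular identifiers. The authors quantified the reads with Salmon 0.13.1 on the mouse transcriptome (GRCm38) and deposited 1 unscaled table that gives an estimated count for each gene symbol in each cell. Of its values above 0, 18.3% are not whole. All 289 columns were matched to samples by title. A cell was kept if it had at least 1000 genes and if its 13 mitochondrial genes held no more than 50% of its counts (274 cells), and 15 cells over the mitochondrial limit were left out. No doublet caller was run, as each well received 1 sorted cell.

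The ribosomal protein share of a cell is the percentage of its non-mitochondrial counts on the 81 members. Plates were the replicates, and medians over cells were compared by exact two-sided permutation over plates, or sign flips of within-plate differences, with at least 5 cells a class. The methods give the single-cell data as 2 separate experiments with 4 biological replicates in each, but not which animals each plate held, so these p-values measure the spread between plates. Estimated counts summed per plate were rounded and, after filterByExpr and TMM scaling, tested with edgeR 4.0.16 quasi-likelihood (R 4.3.3), adjusted by Benjamini-Hochberg over all genes at 0.05; the script was tested on simulated data. SEs of log2 fold changes were derived from the F statistic. DESeq2 1.42.0 was an alternative. Correlations used log2(CPM + 1) and CPM of non-mitochondrial counts. Coding sequences were those of the GENCODE M21 transcript of longest coding sequence, the shortest transcript where several tied, found for all 81 members.

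The label that numbers the plates is called batch, so plates of the same number were also compared as pairs. The main tests did not use this pairing. It entered only in the differences within a replicate number and in the replicate block. Deviations of same-numbered plates from their group means had a correlation of 0.0398 over 12791 genes and 0.607 over the members.

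Genes were named by rule: Rplp0, Rplp1, Rplp2, Rpsa and Rps6, each member whose symbol is another member's followed by l, l1 or x with its partner, the 5 members of smallest p in each direction, the 5 of highest and lowest level per kb, Krt14, Krt10 and Mki67, and the 2 of smallest p of each list of other genes. Others were named after their values were seen. Some genes are not reported here by name and are left out of the plots of single members, but are counted among the 81 members. The members, lists and tests were chosen with earlier results of these data known.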

Additional observations from a re-analysis of the deposited data

How the results depend on the processing

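The treatment difference in the median cell share stayed between 1.52 and 3.16 percentage points under all alternatives that kept the 4 plates and all members, and between 0.263 and 3.78 when 1 plate was left out. The share of the plate sum lay between 2.16 and 3.79, and between 0.470 and 6.22 with 1 plate left out. With replicates as a block (replicate block, the mean of the differences within each number) the values were the same by construction. They were 2.02, 3.34 and 0.00079, with exact permutation p of 1, 0.5 and 1. Sign flips of 2 differences allow no p below 0.5. In edgeR the block called 0 members and 0 genes, so it changed no call. The subunit ratio reversed to -0.0111 with the stricter filter on cells and ranged from -0.0402 (without vehicle plate 1) to 0.0418 with 1 plate left out, reversing also without PRT4165 plate 2 (-0.00926); the cause was not tested. Leaving out 1 plate moved the Krt10 difference between -7.90 and -4.56 and the Mki67 difference between 0.0080 and 1.90.

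Calls among members were 0 under every alternative of every fit. Among all genes, DESeq2 called 104 higher and 70 lower where edgeR called 0; the cause was not tested. The added fit of Krt10 against Krt14 cells called 15 genes higher and 0 lower, then 68 and 14 with each cell scaled to one total, and from 1 to 7 higher with 1 plate left out (0 lower each time). The added fit of Mki67 cells called 28 higher and 13 lower, and with 1 plate left out from 0 (without vehicle plate 1) to 25 higher and from 0 to 29 lower, with 3 each way without PRT4165 plate 1.

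Of 481 refits of 37 named genes in the treatment comparison, 25 changed sign, all of values that had not passed the test, and 1 passed it (Nmd3, DESeq2). Scaling to the members' sum places the members around 0 by construction. In that fit the log2 fold changes were -0.0366 for Rplp0, -0.0872 for Rplp1, -0.0784 for Rps27, -0.0754 for Rpl5, -0.225 for Rpl30, -0.143 for Rps3 and -0.172 for Rpl7a. With each cell scaled to one total they were -0.178 for Rps27, -0.0889 for Rps3 and -0.527 for Mrps30. With all cells they were -0.00177 for Rpl30, -1.15 for Riok2 and -0.128 for Mrps30, and with the stricter filter -0.0669 for Rps3. With 1 plate left out, the range was -0.187 to 0.745 for Rplp0, -0.267 to 0.649 for Rplp1, -0.235 to 0.868 for Rpl5, -0.334 to 0.458 for Rpl30, -0.200 to 0.619 for Rps3, -0.270 to 0.728 for Rpl7a and -0.0570 to 0.801 for Eef1g. The values below 0 came without vehicle plate 1 or without PRT4165 plate 2, except for Rpl5 (without vehicle plate 2).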
